A study of Mus musculus with 8 samples.

Results

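The DNA replication and S phase genes are 48 mouse genes, chosen by name, that encode the machinery that licenses replication origins, copies the DNA and supplies and packages its product. All 48 are among the 24976 gene symbols of the count table, and all 48 passed the filter on low counts, which left 12742 genes for testing. Their RNA was measured in naive CD8+ T cells taken from wild-type mice (WT) or from littermates with loxP-flanked alleles of both Nr4a1 and Nr4a2 (Nr4a1 flox/flox, Nr4a2 flox/flox) and the Cd8Cre transgene, labelled dKO. Every culture received anti-CD3, anti-CD28 and IL-2 and was harvested after 24 or 48 h, which gave 4 groups of 2 libraries each. Cd8Cre places the recombinase in CD8+ cells. The sources used here do not give the age, the sex or the strain of the mice, nor whether the libraries of a group came from separate mice or cultures. The p-values therefore measure only the spread between these libraries, which may be technical.

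A cell can copy its genome only once per cycle because the steps are separated in time. In G1, the origin recognition complex with CDC6 and CDT1 loads the MCM ring onto origins, and in S phase CDC45 and GINS turn that ring into the active helicase, ahead of primase, the replicative polymerases and the PCNA clamp. Many of these genes are transcribed at the G1 to S transition under E2F factors, and naive T cells, which are quiescent, switch them on as they enter rapid division after activation. In bulk RNA, fewer cells in S phase and less RNA per cell cannot be told apart.

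The libraries held 5000952 to 21686236 counts, so the 3 counts taken as the detection limit amount to 0.138 to 0.600 CPM (the count as a rate per 1e+06 counts, here of the whole library), a limit for counting error only. WT 48 h replicate 2 was the deepest. Of the targeted genes, Nr4a1 was 542 and 322 CPM in WT and 589 and 545 CPM in dKO at 24 h, and 735 and 682 CPM against 613 and 651 CPM at 48 h. Nr4a2 was 61.7 and 57.5 CPM in WT and 157 and 146 CPM in dKO at 24 h, and 20.5 and 29.1 CPM against 72.9 and 75.2 CPM at 48 h. Nr4a2 was thus higher in dKO at both times, and Nr4a1 was lower in both dKO libraries at 48 h but not at 24 h. Which exons the floxed alleles lose is not given in the sources used here, so the counts do not check the deletion. Xist ranged from 323 to 805 CPM in WT but from 0.719 to 1.80 CPM in dKO, while 4 Y-linked genes summed to 1.28 to 1.75 and 131 to 175 CPM, so sex and genotype cannot be told apart in any genotype comparison below. Cd8a was 447 to 991 CPM, Cd4 0 to 0.121 CPM and Foxp3, a marker of regulatory T cells, 1.29 to 3.95 CPM. Of the listed markers below, only 4 of 6 for B cells and 3 of 5 for NK or gamma delta T cells were among the gene symbols. The gamma delta genes Trdc and Tcrg-C1 were absent, so these sums do not measure gamma delta T cells. Of the markers of other cells, the B cell list summed to 3.42 to 7.04 CPM, the myeloid list to 43.9 to 60.7 CPM (mostly Cst3, with Lyz2, S100a8 and S100a9 at 0), the NK or gamma delta T cell list to 8.58 to 33.9 CPM (nearly all Eomes, with Ncr1 at 0), and the red cell, platelet or stromal list to 6.07 to 11.3 CPM (Hba-a1, Hbb-bs and Col3a1 at 0).

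Promoter sequence is shown first because it does not depend on the counts. The genes were chosen by name and many are known to be under E2F factors. A high share with E2F sites could thus be foreseen from that choice. RefSeq promoters on build GRCm38.p6, from 250 bases before to 50 after each start, were found for 38 of the 48 genes. An E2F site, spelled TTTCCCGC, TTTCGCGC, TTTGCCGC or TTTGGCGC and searched on both strands, was present for 14 of the 38 (36.8%), against 4.77% of 9502 tested genes with a promoter and 2.6% of all 27025 genes of the promoter table. The 14 were Orc1, Cdc6, Cdt1, Mcm3, Mcm5, Mcm6, Mcm7, Gins3, Pola1, Pold1, Pole2, Rfc3, Lig1 and Clspn. A CCAAT box (CCAAT, both strands) was present for 65.8% of the 38 and 43.3% of the tested genes. The cell cycle homology region of G2 and mitosis promoters, spelled TTTGAA or TTTAAA on both strands, was present for 21.1% of the replication genes, 23.2% of the tested genes and 78.3% of 46 G2 and mitosis genes, whereas the E2F site was present for 6.52% of those 46. These matches describe letters in a window and are not shown to be bound. Of the genes called in a comparison below, Cdt1 and Rfc3 have an E2F spelling, while Orc6, Tk1, Mcm2, Pold2 and Chaf1b have none. The 5 windows below are of 2 helicase subunits with paired matches and of 3 genes whose RNA differed between groups. They read 5′ to 3′ on the strand of the gene, with E2F sites and CCAAT boxes in capitals.
Rfc3: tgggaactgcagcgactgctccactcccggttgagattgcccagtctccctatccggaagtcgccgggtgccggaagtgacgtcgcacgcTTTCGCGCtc
Mcm6: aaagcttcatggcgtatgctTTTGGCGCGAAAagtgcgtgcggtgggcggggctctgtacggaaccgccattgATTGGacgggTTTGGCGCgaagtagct
Mcm5: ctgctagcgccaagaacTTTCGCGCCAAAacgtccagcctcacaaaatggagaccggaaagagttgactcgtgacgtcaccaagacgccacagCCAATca
Cdt1: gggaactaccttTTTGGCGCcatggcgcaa
Orc6: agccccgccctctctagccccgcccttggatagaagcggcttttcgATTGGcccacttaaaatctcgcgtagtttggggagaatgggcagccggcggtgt

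The Rfc3 window lies at chr5:151651209-151651308 on the minus strand, and its site ends at base -3 from the RefSeq start, with another E2F spelling just past the window. The Mcm6 window is at chr1:128359736-128359835 on the minus strand. The Mcm5 window is at chr8:75109339-75109438 on the plus strand. In each of the MCM windows a forward and a reverse E2F spelling overlap in 1 run of capitals, and Mcm6 has another site past its CCAAT box. The Cdt1 window, chr8:122568035-122568064 on the plus strand, lies 21 to 50 bases past the start, and the Orc6 window, chr8:85299532-85299631 on the plus strand, has a CCAAT box and no E2F spelling.

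The 48 genes did not move as a block over time or between genotypes. From 24 to 48 h, 36 of the 48 had log2 changes below 0 in WT and 33 in dKO, against 6354 and 6485 of all 12742 genes. In both genotypes these included all 12 helicase genes and all 3 genes of Okazaki fragment maturation and end resection. Cdt1 was called as rising in WT and Tk1, of the thymidine salvage pathway, in dKO. Each of these genes was also higher at 48 h in the other genotype, without a call. At 48 h, Orc6, Rfc3 and Tk1 were higher and Cdt1 was lower in the libraries labelled dKO than in WT. The map of relative levels shows these patterns together with the split between the WT 48 h replicates. Levels of different genes are not compared, because the values are not per length.

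**Figure D1:**
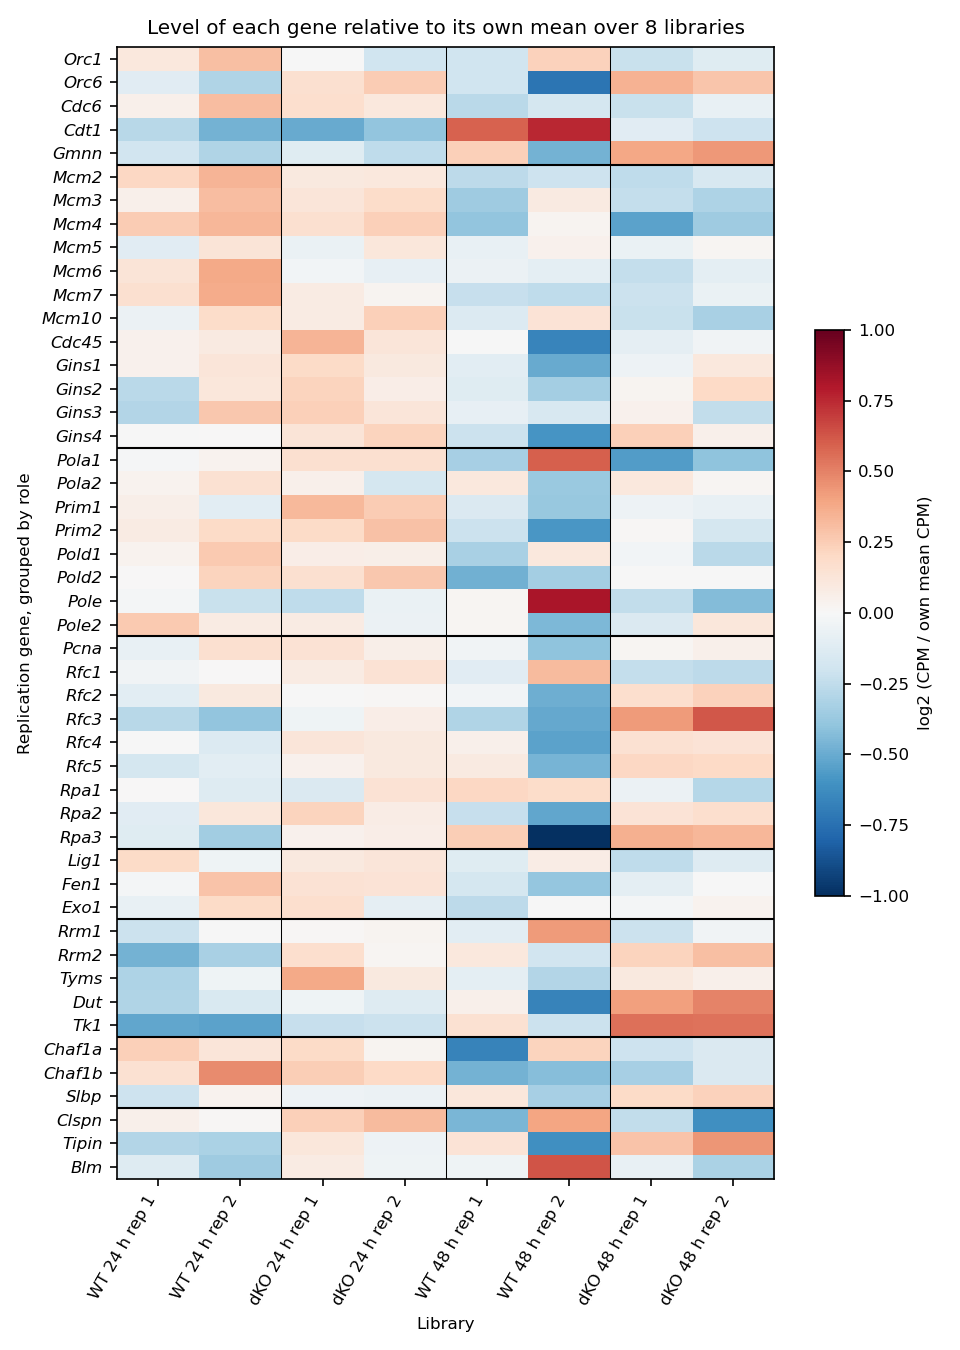
Level of each of the 48 genes (vertical axis, grouped by role with horizontal lines) in each of the 8 libraries (horizontal axis), as log2 of TMM-scaled CPM over the gene's own mean, with the colour scale ending at 1 in either direction. Most MCM genes are paler or blue at 48 h, Tk1 is red in both dKO 48 h libraries, and WT 48 h replicate 2 differs from replicate 1 in many genes.

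With edgeR's quasi-likelihood test, 1 replication gene rose (Cdt1) and 3 fell (Mcm2, Pold2, Chaf1b) from 24 to 48 h in WT, where 7.87% of all tested genes rose and 3.5% fell. The WT groups did not overlap for 6 genes with higher and 15 with lower values at 48 h, against 22.7% and 24.4% of all genes. The median log2 fold change of the 48 was -0.16, beside 0.00 over all genes, and 36 of the 48 were below 0. In dKO, 1 replication gene rose (Tk1) and 0 fell, against 1.76% and 1.88% of all genes, while at an unadjusted p under 0.05 edgeR gave 4 higher and 9 lower, against 11.1% and 12.2%. There the groups did not overlap for 13 genes with higher and 24 with lower values, against 32.8% and 33.5% of all genes. The median was -0.13, beside -0.01 over all genes.

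At 24 h the genotypes differed in 0 of the 48 genes after adjustment, while 0.361% of all genes were higher and 0.0706% lower in dKO. At an unadjusted p under 0.05 edgeR gave 3 higher (Rrm2, Tyms, Rfc3) and 0 lower, where 3.92% and 3.05% of all genes passed, and DESeq2 called 0 in either direction. The groups did not overlap for 18 genes higher and 5 lower in dKO, beside 24.3% and 20.6% of all genes. The median difference was 0.08 and that of all genes 0.01.

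At 48 h, 3 genes were higher and 1 was lower in dKO, against 3.19% and 8.04% of all genes called. Groups that did not overlap were seen for 24 genes with higher and 8 with lower values in dKO, where 28.3% and 28.6% of all genes did so. The median difference was 0.21, beside -0.03 for all genes. Over both times the same 4 genes were called, 3 higher and 1 lower, against 2.28% and 5.52% of all genes. The calls over both times were all lost without WT 24 h replicate 1, either dKO 24 h library or either dKO 48 h library, and those of Orc6 and Tk1 also without WT 24 h replicate 2 (adjusted p over these fits 0.0530 to 0.195 for the 4 genes). At 48 h DESeq2 called Orc6, Rfc3 and Dut higher and Cdt1 and Pole lower, and over both times Orc6 and Rfc3 higher and Cdt1 lower, without Tk1 (adjusted p = 0.0553). The test of whether the genotype difference changed with time called 0 of the 48, and 0% and 0% of all genes, in either direction. At an unadjusted p under 0.05 that interaction was higher for 1 gene (Rfc3) and lower for 4 (Cdt1, Pola1, Pole, Blm), with 3.42% and 8.93% of all genes. Thus no change of the genotype difference with time was shown for any gene described here. The comparisons share libraries: WT 24 h and dKO 48 h, for example, each serve in both a time and a genotype comparison.

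**Figure D2:**
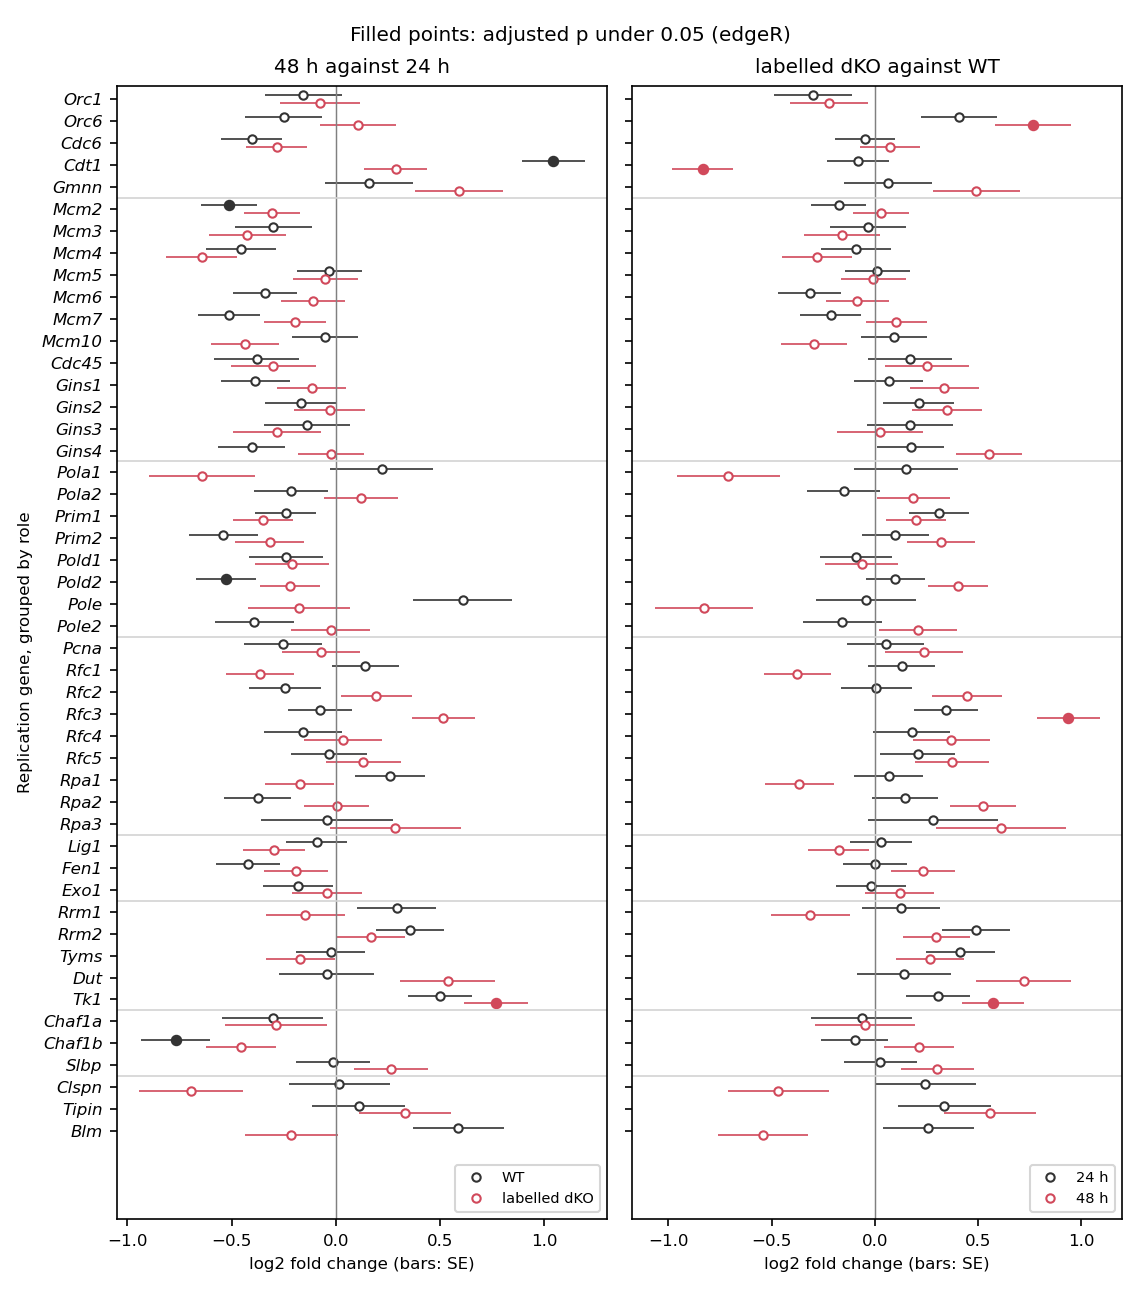
Log2 fold change of each gene (vertical axis, grouped by role) from 24 to 48 h in each genotype (left) and between the libraries labelled dKO and WT at each time (right), with bars of 1 SE from edgeR and filled points for adjusted p under 0.05. Points of all 12 helicase genes lie left of 0 in the time panel for both genotypes, and Cdt1 lies farthest right there for WT.

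Among the origin licensing genes, Cdt1, at chr8:122568015-122573554 on the plus strand, encodes the factor that delivers the MCM ring to origins. Its TMM-scaled CPM, the scale of all values of replication genes below, was 129 and 113 in WT and 110 and 119 in dKO at 24 h, and 235 and 264 in WT and 144 and 136 in dKO at 48 h. Both WT 48 h libraries stood above all other libraries, and at 24 h the genotypes overlapped. Cdt1 rose from 24 to 48 h in WT by a log2 fold change of 1.04 (SE 0.151, edgeR adjusted p = 0.00258), and that call held in each of the 8 fits that left out a library. In dKO the change was 0.29 without a call. The dKO to WT difference was -0.83 at 48 h (SE 0.150, adjusted p = 0.0147), -0.46 over both times (SE 0.106, adjusted p = 0.0305) and -0.08 at 24 h. Scaling by library size alone ended the call over both times (adjusted p = 0.0610). The test of the change in that difference gave -0.76 (SE 0.212, adjusted p = 0.369). Without dKO 48 h replicate 1 or replicate 2 the call at 48 h was lost (adjusted p = 0.137 and 0.191). Geminin, the product of Gmnn, binds CDT1 and blocks relicensing. The ratio of Cdt1 to Gmnn counts was 1.32 and 1.24 in WT 24 h, 1.07 and 1.27 in dKO 24 h, 1.78 and 3.29 in WT 48 h, and 0.988 and 0.900 in dKO 48 h. The ratio of WT 48 h replicate 2 was high on both sides, since its Gmnn level was 80.3 CPM against 132 in replicate 1.

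A group of 4 genes known from muscle and testis (Csrp3, Ropn1, Odf4, Tnp2), noticed after the values were seen, followed the same order of groups as Cdt1. Their summed CPM was 7186 and 4580 in WT 24 h, 4734 and 4668 in dKO 24 h, 17294 and 16628 in WT 48 h, and 7902 and 7582 in dKO 48 h. Their part in the Cdt1 result was not tested. The annotation also places Gm20388 over Cdt1 on the same strand, and how reads shared by both were counted is not given in the sources used here.

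Orc6 encodes the smallest subunit of the origin recognition complex and lies at chr8:85299632-85308278 on the plus strand. It was 93.9 and 82.5 CPM in WT and 113 and 121 CPM in dKO at 24 h, then 88.3 and 61.1 CPM in WT and 129 and 123 CPM in dKO at 48 h. Every dKO library was above every WT library. The difference was 0.77 at 48 h (SE 0.184, edgeR adjusted p = 0.0293) and 0.59 over both times (SE 0.130, adjusted p = 0.0284), while at 24 h it was 0.41 (SE 0.184, adjusted p = 0.718). The call at 48 h held without either WT 48 h library and was lost without any other library in turn, with adjusted p from 0.0564 to 0.192. Its gene overlaps Vps35 on the opposite strand, and whether strand was used in counting is not given. In dKO, Gmnn had the smallest p of the licensing genes over time, with a log2 change of 0.59 (SE 0.212, adjusted p = 0.142). Orc1, the ATPase subunit of the complex, and Cdc6, its loading partner, were not called in any comparison. Cdc6 was 55.1 to 65.8 CPM in the 24 h libraries and 44.1 to 50.4 CPM in those at 48 h, so all libraries of the earlier time were higher.

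**Figure D3:**
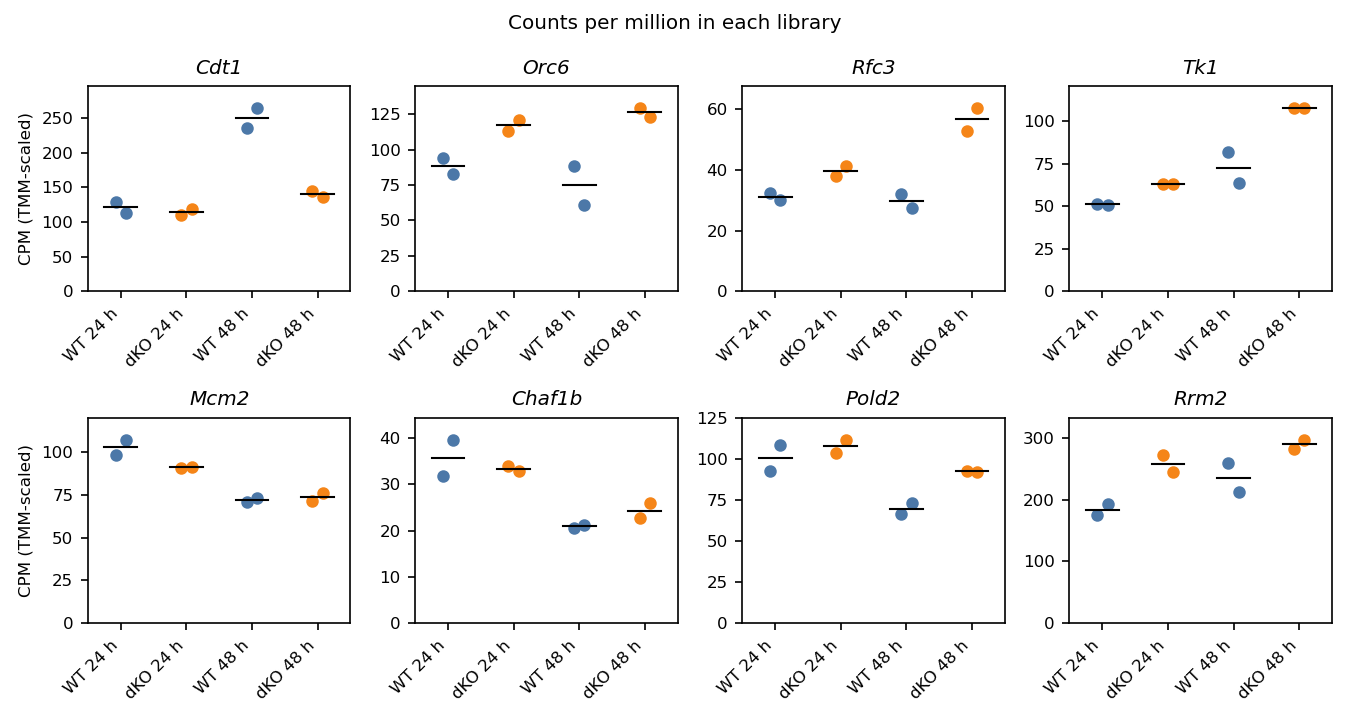
TMM-scaled CPM (vertical axis, from 0) of 8 genes in each library (points) by group (horizontal axis), with bars at the group means. Cdt1 is highest in both WT 48 h libraries at 235 and 264, and Rfc3 is highest in both dKO 48 h libraries at 52.9 and 60.3.

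The MCM helicase and its loading and activating factors were measured through 12 genes. All 12 had a log2 change below 0 from 24 to 48 h in WT (-0.51 to -0.03) and in dKO (-0.64 to -0.02), comparisons in which 50.1% and 49.1% of all genes were above 0. In WT 1 of them fell, Mcm2, a subunit of the ring at chr6:88883474-88898780 on the minus strand. Mcm2 was 98.4 and 108 CPM at 24 h and 70.9 and 73.5 CPM at 48 h in WT, with 91.0 and 91.4 CPM, then 71.3 and 76.2 CPM, in dKO. Both genotypes were thus lower at 48 h in every library. The WT change was -0.51 (SE 0.133, edgeR adjusted p = 0.0358), and that in dKO was -0.31 without a call. The WT call was lost with the replicate number as a block (adjusted p = 0.0531), without the filter (0.0802), with DESeq2 (adjusted p = 0.100) and without any 24 h or dKO 48 h library (0.0865 to 0.180).

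Mcm4, another ring subunit, had the smallest p of the role over time in dKO. It was 158 and 166 CPM at 24 h and 97.0 and 110 CPM at 48 h, a change of -0.64 (SE 0.170, edgeR adjusted p = 0.0746). Mcm5, whose promoter window is printed above, varied little, at 184 to 218 CPM over the 8 libraries, with changes of -0.03 in WT and -0.05 in dKO. Mcm6, the other subunit with a printed window, was 235 and 280 CPM in WT 24 h and 182 to 211 CPM in the other 6 libraries. Its genotype difference at 24 h, -0.32, had the smallest p of the role there (SE 0.154, adjusted p = 0.774). Gins4, a subunit of the GINS complex that activates the ring, was 45.7 and 35.2 CPM in WT and 62.7 and 55.1 CPM in dKO at 48 h. The dKO libraries were both higher, by 0.55 (SE 0.161, adjusted p = 0.0544), and over both times by 0.36 (SE 0.114, adjusted p = 0.0780). With the length trend of each library removed, the Gins4 difference at 48 h was 0.30. It was 0.73 without WT 48 h replicate 1 and 0.37 without replicate 2. Mcm10, which links the helicase to polymerase alpha, had the smallest interaction p of the role, with a value of -0.39 (SE 0.226, adjusted p = 0.480).

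Of the polymerase and primase genes, Pold2, the accessory subunit of polymerase delta at chr11:5872180-5878292 on the minus strand, was 92.7 and 108 CPM in WT 24 h and 66.3 and 73.1 CPM in WT 48 h. In dKO it was 104 and 112 CPM, then 92.5 and 92.2 CPM. The WT 48 h libraries were below all others. Pold2 fell in WT by 0.52 on the log2 scale (SE 0.144, edgeR adjusted p = 0.0444), beside a change of -0.22 in dKO. That call was lost with the replicate number as a block (adjusted p = 0.0541), without the filter (0.0698), with the length trend removed (0.112), with DESeq2 (adjusted p = 0.0986) and without any 24 h or dKO 48 h library (0.0679 to 0.233).

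The catalytic subunits of polymerases epsilon (Pole) and alpha (Pola1) were split between the WT 48 h replicates. Pole was 35.5 and 61.5 CPM in WT and 29.4 and 25.9 CPM in dKO at 48 h, a difference of -0.83 (SE 0.238, edgeR adjusted p = 0.0526), and over both times it was -0.44 (SE 0.170, adjusted p = 0.135). With the length trend of each library removed, the Pole difference at 48 h was -0.47. It was -1.17 without WT 48 h replicate 1 and -0.36 without replicate 2. Pola1, which is X-linked, was 36.1 and 68.8 CPM in WT and 30.7 and 34.4 CPM in dKO at 48 h. Its interaction was -0.86 (SE 0.354, adjusted p = 0.378), and its dKO change over time was -0.64 (SE 0.254, adjusted p = 0.173). The groups did not overlap for either gene, but WT replicate 1 lay near the dKO values and replicate 2 far above. Prim1, the catalytic subunit of primase, was 97.0 and 86.3 CPM in WT and 117 and 111 CPM in dKO at 24 h, a difference of 0.31 (SE 0.145, adjusted p = 0.744). Prim2, the large primase subunit, was 42.8 to 49.3 CPM in the 24 h libraries and 27.0 to 40.7 CPM in those at 48 h, so the times did not overlap.

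Of the genes for the clamp, its loader and the proteins that bind single-stranded DNA, Rfc3, at chr5:151642756-151651242 on the minus strand, encodes a small subunit of replication factor C, which opens PCNA and places it on primed DNA. It was 32.4 and 29.9 CPM in WT and 38.1 and 41.2 CPM in dKO at 24 h, and 31.9 and 27.5 CPM in WT and 52.9 and 60.3 CPM in dKO at 48 h. All dKO libraries were above all WT libraries, and the dKO 48 h pair was the highest. The difference was 0.94 at 48 h (SE 0.152, edgeR adjusted p = 0.0147) and 0.64 over both times (SE 0.108, adjusted p = 0.0151), with 0.35 at 24 h (SE 0.154, adjusted p = 0.715). The interaction was 0.59 (SE 0.216, adjusted p = 0.369). The 48 h call was lost without dKO 48 h replicate 1 or replicate 2 (adjusted p = 0.137 and 0.191) and held without each of the other 6 libraries. In dKO the change over time was 0.52 (SE 0.151, adjusted p = 0.0966).

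The other loader subunits did not pass a test. At 48 h the difference was 0.45 for Rfc2, 0.37 for Rfc4 and 0.37 for Rfc5, and it was -0.38 for Rfc1, the large subunit. Pcna itself was 643 and 758 CPM in WT and 749 and 703 CPM in dKO at 24 h, and 661 and 513 CPM in WT and 684 and 700 CPM in dKO at 48 h. The groups overlapped at 24 h, and at 48 h the lower WT value came from replicate 2. Of the subunits of replication protein A, which coats single-stranded DNA, Rpa2 was 86.7 ± 12.2 CPM in WT and 124 ± 2.15 CPM in dKO at 48 h (SD, n = 2), without overlap. The Rpa2 change in WT over time was -0.38 (SE 0.159, edgeR adjusted p = 0.177), the smallest p of the role in that comparison. Rpa3 differed most between replicates, at 118 and 49.2 CPM in WT 48 h against 127 and 125 CPM in dKO 48 h. All 9 genes of the role had a value above 0 for the genotype difference at 24 h (0.01 to 0.35), where 51.2% of all genes were above 0, and for 5 of them the groups did not overlap, as for 24.3% of all genes.

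In Okazaki fragment maturation and end resection, Lig1 seals the joins between lagging-strand fragments, Fen1 trims their flaps, and Exo1 digests DNA ends. None of these 3 was called. Fen1 was 89.9 and 111 CPM in WT 24 h and 80.6 and 69.7 CPM in WT 48 h, a change of -0.42 (SE 0.155, edgeR adjusted p = 0.120), and in dKO 101 and 100 CPM, then 85.3 and 90.9 CPM. Its genotype difference was 0.23 at 48 h and 0.12 over both times, and its interaction was 0.23. Lig1 had the smallest p of the 3 over time in dKO, with -0.30 (SE 0.149, adjusted p = 0.263), and differed between genotypes at 24 h by 0.03.

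Of the genes that supply deoxynucleotides, Tk1 encodes cytosolic thymidine kinase, the salvage enzyme that makes thymidine monophosphate, and lies at chr11:117815526-117826092 on the minus strand. It was 51.5 and 50.9 CPM in WT and 63.0 and 63.4 CPM in dKO at 24 h, and 82.0 and 63.5 CPM in WT and 108 and 108 CPM in dKO at 48 h. The dKO libraries were above the WT libraries at each time, and the 48 h libraries above the 24 h libraries in each genotype. The genotype difference was 0.57 at 48 h (SE 0.151, edgeR adjusted p = 0.0410) and 0.44 over both times (SE 0.108, adjusted p = 0.0376), with 0.30 at 24 h without a call. The rise over time was 0.77 in dKO (SE 0.153, adjusted p = 0.0273), and the WT value was 0.50 (SE 0.154, adjusted p = 0.0663). The 48 h genotype call held when WT 48 h replicate 1 was left out and was lost without each of the other 7 libraries (adjusted p = 0.0508 to 0.239) and with DESeq2 (adjusted p = 0.0610). The dKO time call was lost without any dKO library (adjusted p = 0.192 to 0.260) and when scaled by library size alone (0.0593). Tk1 overlaps Afmid and Gm20708 on the opposite strand.

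All 5 supply genes had higher values in both dKO libraries than in both WT libraries at 24 h, with differences of 0.13 to 0.49, as did 24.3% of all genes, and 0 of the 5 passed the adjusted test. Rrm2, the regulatory subunit of ribonucleotide reductase, was 175 and 194 CPM in WT and 272 and 245 CPM in dKO at 24 h. The difference was 0.49 (SE 0.164, unadjusted p = 0.0139, adjusted p = 0.443 in edgeR's test), and Rrm2 was called at 24 h when either WT 48 h library was left out of the fit. Tyms makes thymidylate from deoxyuridylate, and Dut makes that deoxyuridylate while clearing dUTP. Dut was 543 and 330 CPM in WT and 697 and 740 CPM in dKO at 48 h, without overlap but with a wide gap between the WT replicates. Its interaction, 0.58, had the smallest p of the role (SE 0.322, adjusted p = 0.463).

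Among the genes of chromatin assembly and histone mRNA, Chaf1b, at chr16:93883901-93906115 on the plus strand, encodes the middle subunit of chromatin assembly factor 1, which loads histones onto new DNA behind PCNA. It was 31.8 and 39.7 CPM in WT and 33.9 and 32.8 CPM in dKO at 24 h, and 20.6 and 21.3 CPM in WT and 22.7 and 25.9 CPM in dKO at 48 h. Every 48 h library was below every 24 h library. Chaf1b fell in WT by 0.77 on the log2 scale (SE 0.166, edgeR adjusted p = 0.0147), and the dKO value was -0.46 (SE 0.167, adjusted p = 0.148). Its genotype difference was -0.10 at 24 h, and its interaction was 0.31 (SE 0.235, adjusted p = 0.562). Among fits that left out a library the WT call was lost only without WT 24 h replicate 2 (adjusted p = 0.140). Slbp, which binds the stem loop of histone mRNA, differed between genotypes by 0.30 at 48 h (SE 0.177, adjusted p = 0.257) and 0.17 over both times.

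Of the fork genes, Clspn encodes claspin, which relays the checkpoint signal to CHK1, Tipin encodes a partner of Timeless at the fork, and Blm encodes a RecQ helicase. Clspn was 65.7 and 69.4 CPM in dKO 24 h and 47.1 and 36.4 CPM in dKO 48 h, a change of -0.69 (SE 0.248, edgeR adjusted p = 0.141). Tipin was 183 and 109 CPM in WT and 202 and 226 CPM in dKO at 48 h, a difference of 0.56 (SE 0.223, adjusted p = 0.118). Its difference was 0.34 at 24 h and 0.45 over both times (adjusted p = 0.880 and 0.108). Blm was 35.5 and 56.5 CPM in WT and 34.8 and 29.3 CPM in dKO at 48 h. For Tipin and Blm the gap between the WT replicates was wider than the gap from the nearer WT replicate to dKO. Blm had an interaction of -0.80 (SE 0.311, adjusted p = 0.375) and a WT change over time of 0.59 (SE 0.218, adjusted p = 0.124).

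The split between the WT 48 h replicates followed gene length. Over the 48 genes, the log2 difference of replicate 2 minus replicate 1 had a Spearman correlation with exonic length of 0.60 in WT 48 h, against 0.08 in WT 24 h, 0.08 in dKO 24 h and -0.11 in dKO 48 h. These points share their libraries and are given as a description. Over 11818 tested genes with a length the WT 48 h value was 0.43. Of the 24 shorter genes (1136 to 4097 bases), 18 were lower in WT 48 h replicate 2, with a median of -0.29, and of the 24 longer genes (4268 to 11160 bases), 14 were higher, with a median of 0.07. The genotype difference at 48 h carried the same ordering, with a Spearman correlation with length of -0.57 over the 48 genes and -0.37 over all genes, and medians of 0.32 for the shorter and -0.01 for the longer genes. Length also ordered the change over time in dKO, which uses no WT 48 h library, at -0.40 and -0.26. Its medians were -0.03 for the shorter and -0.20 for the longer genes. The correlations were -0.22 and -0.12 for the genotype difference at 24 h, and 0.23 and 0.08 over time in WT. A fit with the length trend of each library removed, added after the data were seen, still called Orc6, Rfc3, Tk1 and Cdt1 at 48 h and over both times. In that fit Pole joined Cdt1 among the genes that rose in WT over time, and Mcm7 took the place of Pold2 among those that fell.

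**Figure D4:**
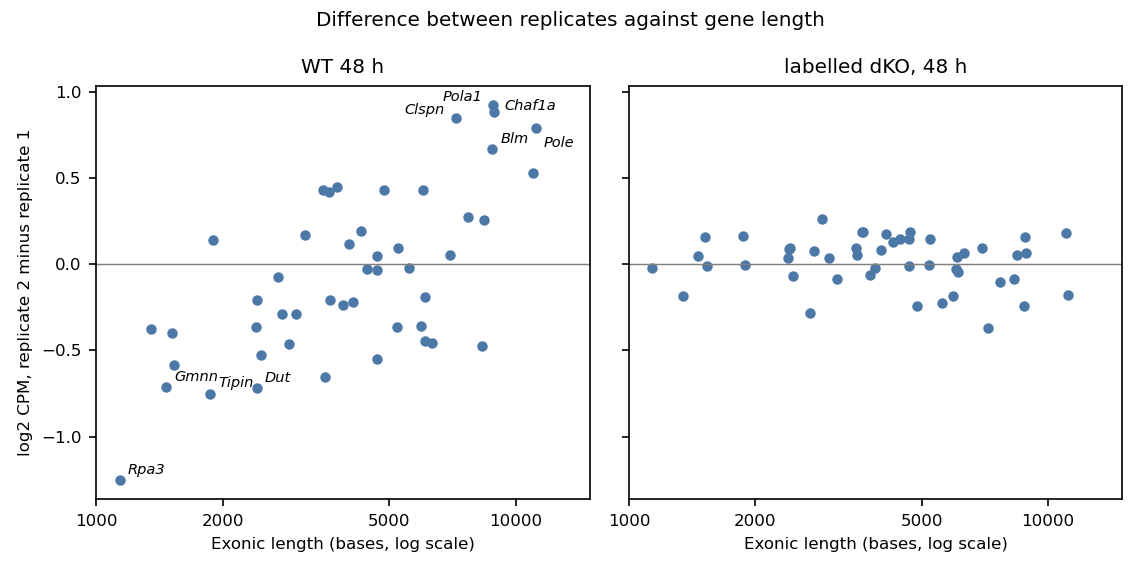
Log2 difference in CPM between replicate 2 and replicate 1 (vertical axis) of each of the 48 genes against its exonic length in bases (horizontal axis, log scale), for WT 48 h and the 48 h libraries labelled dKO. In WT short genes such as Rpa3 lie below 0 and long genes such as Pola1 and Pole above it, with a Spearman correlation of 0.60, while the value in dKO is -0.11.

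WT 48 h replicate 1 had the largest hold on the counts of calls. Without it, the test at 48 h called 22 replication genes higher and 12 lower in dKO, where 23.3% and 25.9% of all genes were called. The test over both times called 20 and 9, against 20.3% and 22% of all genes, and the interaction 16 and 8, against 11.6% and 14.5%. In WT over time 8 rose and 18 fell, against 17.2% and 14.6%. Replicate 2 is then the only WT 48 h library. The difference between replicates 1 and 2 followed length, and which of them carries that trend was not tested. Without replicate 2, the test at 48 h called Orc6, Pold2 and Rfc3 higher and Cdt1 lower, against 2.16% and 6.59% of all genes, and the interaction called 0. In WT over time 6 then rose and 10 fell, against 13.8% and 8.71%.

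Genes that act around the replication machinery gave few calls, in both directions. Of 50 other replication genes, 2 rose (Chtf18, Dbf4) and 1 fell (Rnaseh2a) over time in WT, against 7.87% and 3.5% of all genes. In dKO 1 rose (Dbf4) and 1 fell (Hus1), against 1.76% and 1.88%. Dbf4, which activates the CDC7 kinase that fires origins, was 29.6 and 32.5 CPM in WT 24 h and 70.7 and 59.0 CPM in WT 48 h, a rise of 1.06 (SE 0.148, edgeR adjusted p = 0.00258). In dKO it was 45.1 and 43.2 CPM, then 68.6 and 67.0 CPM, a rise of 0.62 (SE 0.146, adjusted p = 0.04999). Both genotypes thus had higher Dbf4 at 48 h without overlap. Chtf18, of an alternative clamp loader, rose in WT by 1.35, while Rnaseh2a, of the enzyme that removes RNA from DNA, fell there by 0.59 and Hus1, of the checkpoint clamp, fell in dKO by 0.84 on the log2 scale (adjusted p = 0.00258, 0.0426 and 0.0356). At 48 h Chtf18 and Atr, the replication stress kinase, were lower in dKO with log2 differences of -0.97 and -1.09 (edgeR adjusted p = 0.0163 and 0.0451), where Atr was 15.7 and 32.7 CPM in WT and 11.6 and 11.8 CPM in dKO. As for Pole and Pola1, WT replicate 1 lay near the dKO values and replicate 2 far above. Over both times Chtf18 and Samhd1, which degrades deoxynucleotides, were lower, at -0.58 and -0.68 (adjusted p = 0.0323 and 0.0260). The list thus had 0 genes called higher and 2 lower in dKO at 48 h, against 3.19% and 8.04% of all genes. Over both times these counts were again 0 and 2, against 2.28% and 5.52%. The list's median genotype difference at 48 h was 0.04, beside -0.03 for all genes.

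Of 23 tested regulators of the G1 to S transition, 1 rose (Cdkn1a) and 2 fell (Ccne1, E2f7) in dKO against WT at 48 h and over both times, and 1 rose (Cdkn1a) at 24 h. Of all genes, 3.19% were higher and 8.04% lower at 48 h, 2.28% and 5.52% over both times, and 0.361% higher at 24 h. Cdkn1a encodes p21, the inhibitor of cyclin-dependent kinases that also binds PCNA. It was 24.8 and 25.1 CPM in WT and 77.0 and 74.4 CPM in dKO at 24 h, a difference of 1.60 (SE 0.138, edgeR adjusted p = 0.000597), and 47.0 and 44.3 CPM against 70.4 and 64.2 CPM at 48 h, a difference of 0.56 (SE 0.132, adjusted p = 0.0275). All dKO libraries were above all WT libraries. Ccne1, which encodes cyclin E1, was 490 and 524 CPM in WT and 289 and 283 CPM in dKO at 48 h, against 190 to 262 CPM at 24 h. E2f7, a repressor of E2F targets, was 339 and 384 CPM in WT and 173 and 148 CPM in dKO at 48 h. The 48 h differences were -0.83 for Ccne1 and -1.17 for E2f7 (edgeR adjusted p = 0.0199 and 0.0147). Cdt1, Ccne1, E2f7 and Chtf18 thus shared their order of groups with the 4 muscle and testis genes given above, whose part in these results was not tested. Over time 7.87% of all genes rose and 3.5% fell in WT, and 1.76% and 1.88% did so in dKO. Of the regulators, 4 rose in WT (Ccne1, Cdkn1a, E2f7, E2f8) and 0 in dKO, and 1 fell in each. The WT changes were 1.17, 0.87, 1.47 and 0.85 in that order. E2f1, an activator of replication genes, fell over time in WT by 0.80 and in dKO by 0.69 on the log2 scale (adjusted p = 0.00842 and 0.0453), from 36.4 to 43.7 CPM in the 24 h libraries to 21.7 to 24.8 CPM in those at 48 h.

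The next phase of the cycle is read from the G2 and mitosis genes. Of these 54 genes, 47 rose in WT over time, against 7.87% of all genes, with a median of 1.22. In dKO 24 rose, against 1.76%, with a median of 0.61. The replication genes had medians of -0.16 in WT and -0.13 in dKO. No test of the difference between the lists was made.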

How the data were processed

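Whole-number counts per gene for 8 bulk RNA libraries of mouse CD8+ T cells were deposited by the authors as 1 table. Reads were processed with cutadapt 1.18 and Bowtie2 2.2.5 on build mm10, per the submitters' processing notes. For the counting program, its annotation, its use of strand and the handling of duplicate reads, nothing is stated (not given in the sources used here), so overlapping genes may share counts. A last row with no gene name equals each column's total, 50% of the column sum, and was left out.

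All 8 libraries entered 1 edgeR 4.0.16 quasi-likelihood fit (R 4.3.3, limma 3.58.1) with a mean per group, TMM scaling and filterByExpr at a minimum count of 10. The 2-sided tests of 6 comparisons were adjusted by Benjamini-Hochberg over all 12742 genes tested and called under 0.05. The SE of a log2 fold change is its size over the square root of F. An exact permutation test of 2 libraries against 2 cannot go below p = 0.333, so none was used. Alternatives were median-ratio size factors, library size alone, no filter, a mean of at least 50 counts, DESeq2 1.42.0, a replicate block, each library left out in turn and, added after the data were seen, removal of each library's length trend. Gene positions and exonic lengths are from GENCODE M21 (GRCm38), and promoters are from RefSeq.

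The genes and lists were chosen with earlier results of these data known. In each comparison and role, called genes are named with their values, or the gene with the smallest p where none was called. Called genes of the 2 related lists are named too. Other genes, such as Mcm5, Cdc6, Pcna, Prim2 and Rpa3, were chosen to describe their role after their values were seen.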

Additional observations from a re-analysis of the deposited data

How the results depend on the processing

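The alternatives were read for the 48 replication genes only. Of these, no called gene and no gene with the smallest p of its role changed its direction past the threshold under any alternative. Results of the other replication genes, the G1 to S regulators and the G2 and mitosis genes are from the main fit alone. The counts of called genes, by edgeR unless stated, moved by over 1.5 times as follows. Scaling by library size alone called 10 of the 48 genes higher at 48 h between genotypes, and 6 higher and 0 lower over both times. Over time it called 21 lower in WT, and 0 higher and 1 lower in dKO. Among all 12742 genes tested the counts moved in the same directions. That scaling called 1624 of them higher at 48 h, and 691 higher and 612 lower over both times. Over time it called 2641 lower in WT, and 143 higher and 594 lower in dKO. It moved the median log2 difference of all genes to 0.15 at 48 h, 0.07 over both times, 0.15 for the interaction, -0.36 over time in WT and -0.18 in dKO, and the share of calls that were higher from 28.4% to 63.9%, from 29.3% to 53.0%, from 69.2% to 21.6% and from 48.4% to 19.4% in the comparisons with calls. Under that scaling the distance of the 48 genes' median from that of all genes stayed near: 0.23 and 0.24 at 48 h, -0.16 and -0.17 over time in WT. The median itself moved with the WT 48 h libraries. At 48 h it was 0.21 in the main fit, 0.14 with the length trend removed, 0.31 without WT 48 h replicate 1 and 0.10 without replicate 2. For the interaction it was 0.15 in the main fit, and 0.24 and 0.05 without these replicates. Without a filter 8 were higher and 3 lower at 48 h, beside 940 and 2022 of the 22981 genes with a count. The other counts without a filter were 6 and 2 over both times, 3 and 1 over time in WT, and 2 and 3 in dKO. DESeq2 called 2 lower at 48 h, beside 859 of all genes, and 1 lower in WT over time. Removing the length trend gave 2 higher in WT and 1 lower in dKO over time.

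With the replicate block, 1 gene (Chaf1b) fell in WT over time, and Mcm2 and Pold2 were lost; it changed no other count. The labels give no shared origin for a number. Deviations of same-numbered libraries correlated at -0.08 to 0.17. Such values cannot show whether a number marks a shared mouse, culture or batch, so the pairing of libraries is unknown.

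Leaving out 1 library, where the lone library is assumed to vary like the other groups, gave these ranges. At 24 h 0 to 1 genes were higher and 0 to 0 lower; at 48 h 0 to 22 and 0 to 12; over both times 0 to 20 and 0 to 9; for the interaction 0 to 16 and 0 to 8; over time in WT 1 to 8 and 0 to 18; in dKO 0 to 6 and 0 to 9. Without dKO 48 h replicate 1 or 2, 0 genes were called at 48 h and over both times. Over both times 0 were also called without WT 24 h replicate 1 or either dKO 24 h library.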
